A study of Mus musculus with 12 samples.

Results

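The lysosome genes described here are 46 genes of lysosomal hydrolases, lysosomal membrane proteins, subunits of the vacuolar proton pump (V-ATPase) and the TFEB family of transcription factors. They were picked by name, as the rows of the count table whose gene symbol equals one of 46 listed symbols. All 46 were found among the 24411 genes of the table, and all 46 passed the filter on low counts, which left 13922 genes for testing. RNA of whole livers was analysed from mice on the C57BL/6 background at 3 months of age. All 3 genotypes carried homozygous loxP-flanked Atg7. The cont. mice (Atg7flox/flox, n = 3) had no Cre, the Atg7-KO mice (Atg7flox/flox;Alb-Cre, n = 3) lacked Atg7 in cells that express albumin, that is in hepatocytes, and the Atg7-KO;p62T352A mice (n = 3) carried in addition the T352A exchange on both alleles of the endogenous p62 gene, Sqstm1. The knock-in allele had been made by prime editing of embryonic stem cells. The paper calls this knockout hepatocyte-specific, and Atg7 in other cell types was not measured separately here. A further set of 3 p62T352A mice is labelled but was not analysed here.

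Lysosomes degrade what autophagy and endocytosis deliver, with acid hydrolases in the lumen that work at the low pH set by the V-ATPase, and with a membrane rich in LAMP proteins. TFEB, TFE3 and MITF are related transcription factors that are held in the cytoplasm when mTORC1 is active at the lysosome, and that bind an E-box in the promoters of lysosomal genes, the CLEAR element, once they enter the nucleus. ATG7 is an enzyme needed to form autophagosomes, upstream of the lysosome. In liver, macrophages hold many lysosomes and express a number of these genes strongly, so a whole-liver level sums over hepatocytes and other cells. In such bulk RNA, fewer cells of a type and less RNA per cell cannot be told apart.

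The promoters were read for the letters that these transcription factors and NRF2 bind. RefSeq promoters (GRCm38.p6, 250 bases before to 50 after the start of transcription) matched 39 of the 46 genes by symbol, in 49 promoters. The E-box CACGTG, which reads the same on both strands, stood in 26.5% of these 49 promoters, in 9.6% of the 13431 promoters of tested genes and in 7.15% of all 32851 promoters. The longer form TCACGTGA, which contains the E-box and is the core of the CLEAR element, stood in 10.2%, 1.77% and 0.974%. The antioxidant response core TGACNNNGC, searched on both strands, was found in 24.5%, 14.3% and 12.4%. The longer form was present in 5 genes, and the 30 bases around its copy farthest upstream are given for each, 5′ to 3′ on the strand of the gene, with TCACGTGA in capitals, because they are the clearest matches to the element by which the TFEB family is known to act.

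Atp6v1a: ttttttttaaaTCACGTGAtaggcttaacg
Ctsa: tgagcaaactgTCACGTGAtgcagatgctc
Ctsd: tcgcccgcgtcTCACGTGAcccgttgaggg
Ifi30: atccaaaaactTCACGTGAccagacatgct
Mcoln1: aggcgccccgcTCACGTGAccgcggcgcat

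The Atp6v1a stretch lies at chr16:44139373-44139402 on the minus strand, inside the annotated gene but outside its exons, with the motif starting 132 bases before the RefSeq start site. The Ctsa stretch, at chr2:164833749-164833778 on the plus strand, starts its motif 13 bases before the start site, and a second copy follows within this promoter. In Ctsd (chr7:142387908-142387937, minus strand) the distance was 99 bases, in Ifi30 (chr8:70766842-70766871, minus strand) 197 bases and in Mcoln1 (chr8:3500462-3500491, plus strand) 46 bases. In the GENCODE annotation (vM21) of the same build, the Ctsa, Ctsd and Mcoln1 stretches overlap an annotated exon of the gene, and the Ifi30 stretch lies under an exon of 6330537M06Rik on the opposite strand. Of these 5 genes, Atp6v1a, Ctsd and Ifi30 were called higher in Atg7-KO livers than in cont., whereas Ctsa and Mcoln1 were not called in any comparison. Of the 13 genes with any CACGTG, 5 were called higher in Atg7-KO livers, and of the 26 genes whose promoters lacked it, 13 were. For TGACNNNGC the counts were 6 of 12 and 12 of 27. Over all tested genes 21.6% were called higher in Atg7-KO livers. The share called among all genes with each motif was not determined, so these counts are no result about the motifs. A match to these letters is a description of the window and no evidence of binding.

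Total counts ranged from 9671080 to 23285132 in cont., from 16157269 to 18480553 in the Atg7-KO mice and between 16133620 and 17357172 in the Atg7-KO;p62T352A mice. Levels are given as CPM, counts scaled to a common library size after TMM adjustment, and a gene was called where the Benjamini-Hochberg FDR of edgeR's quasi-likelihood test over all tested genes was under 0.05 and the fold change over 1.5. Atg7 itself stood at 46.4, 44.2 and 55.4 CPM in the cont. mice, 10.1, 9.57 and 11.99 in the Atg7-KO mice and 29.7, 27.4 and 29.5 in the Atg7-KO;p62T352A mice. Atg7 was thus lower than in cont. livers in both knockout genotypes, but it was called higher in Atg7-KO;p62T352A livers than in Atg7-KO (log2 fold change 1.45 ± 0.17, FDR = 0.000164). The counts cover the whole gene and do not separate the deleted exons, and the part of this difference in the results was not tested. Sqstm1 and the NRF2 target Nqo1 were highest in Atg7-KO livers (871 to 959.7 and 175 to 249 CPM), with 314 to 505 and 6.36 to 12.2 CPM in cont. and 497 to 626 and 11.7 to 18.4 CPM in Atg7-KO;p62T352A livers. Mouse 1 of the cont. group stood apart from the other two in the lysosome genes. It had the highest level among the cont. mice for 33 of the 46 genes and the lowest for 12, and its median ratio to the mean of the other two was 1.46, against 0.958 over all tested genes. In each genotype the mouse numbered 1 had 28 or fewer counts of Xist, the RNA of the inactive X chromosome, and the others had 8578 or more. Cont. mouse 1 also had 23285132 total counts, against 11108106 and 9671080 in cont. mice 2 and 3. The 20 genes with the most counts took 31.2% of its counts, against 22.8% and 21.1% in cont. mice 2 and 3. The sex of cont. mouse 1, its library and its other properties cannot be told apart.

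Many of the lysosome genes were higher in Atg7-KO livers than in cont.. Of the 46, 21 were called higher but 0 lower, while 21.6% of all tested genes were called higher and 22.1% lower. The median log2 fold change of the 46 was 0.59, and that of all tested genes was -0.032. In the comparison of the 2 knockout genotypes, which differ in p62 and, as given above, also in the measured level of Atg7, nearly all calls were in the opposite direction. In Atg7-KO;p62T352A compared with Atg7-KO livers 24 of the 46 were called lower and 1 higher, with 26.2% and 24.7% of all tested genes called lower and higher, and with medians of -0.87 for the lysosome genes and 0.0021 for all tested genes. Compared with cont. livers, 3 of the 46 were called higher in Atg7-KO;p62T352A livers and 0 lower, at backgrounds of 6.25% and 5.34% and with medians of -0.004 and 0.0044. In each of the 3 comparisons the called genes (21, 25 and 3) had levels that did not overlap between the mice of the 2 groups. The share without overlap over all called genes was not determined, so this is no result about the lysosome genes as a list. The first 2 comparisons share the Atg7-KO mice and the first and the last share the cont. mice, so they are not independent of each other.

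The genes fell into few patterns over the 3 comparisons. A total of 18 were called higher in Atg7-KO livers than in cont., lower in Atg7-KO;p62T352A livers than in Atg7-KO, and not called between Atg7-KO;p62T352A and cont. livers. Cd63 was called in all 3 comparisons, Ctsz was called higher in both knockout genotypes than in cont. livers, and Ctsb was called only in Atg7-KO against cont. livers. A group of 5 genes (Ctsh, Sgsh, Arsb, Lamp1 and Scarb2) was called only as lower in Atg7-KO;p62T352A livers than in Atg7-KO. Tfeb was called only as higher in that comparison and Acp5 only as higher in Atg7-KO;p62T352A livers than in cont.. The remaining 18 genes were not called in any comparison. The share of all tested genes with each of these patterns was not determined, so the counts describe the 46 genes and are no result about them as a list. More genes were called when cont. mouse 1 was left out: 29 of the 46 were then called in Atg7-KO against cont. livers, 3 of them lower, and 7 in Atg7-KO;p62T352A against cont. livers, 1 of them lower. This rise in calls was not particular to the lysosome genes. Of 14207 genes then tested, 3984 were higher and 3976 lower in Atg7-KO against cont., compared with 3006 and 3074 of 13922 with all mice. In Atg7-KO;p62T352A against cont. 1514 were higher and 1731 lower, compared with 870 and 743.

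**Figure D1:**
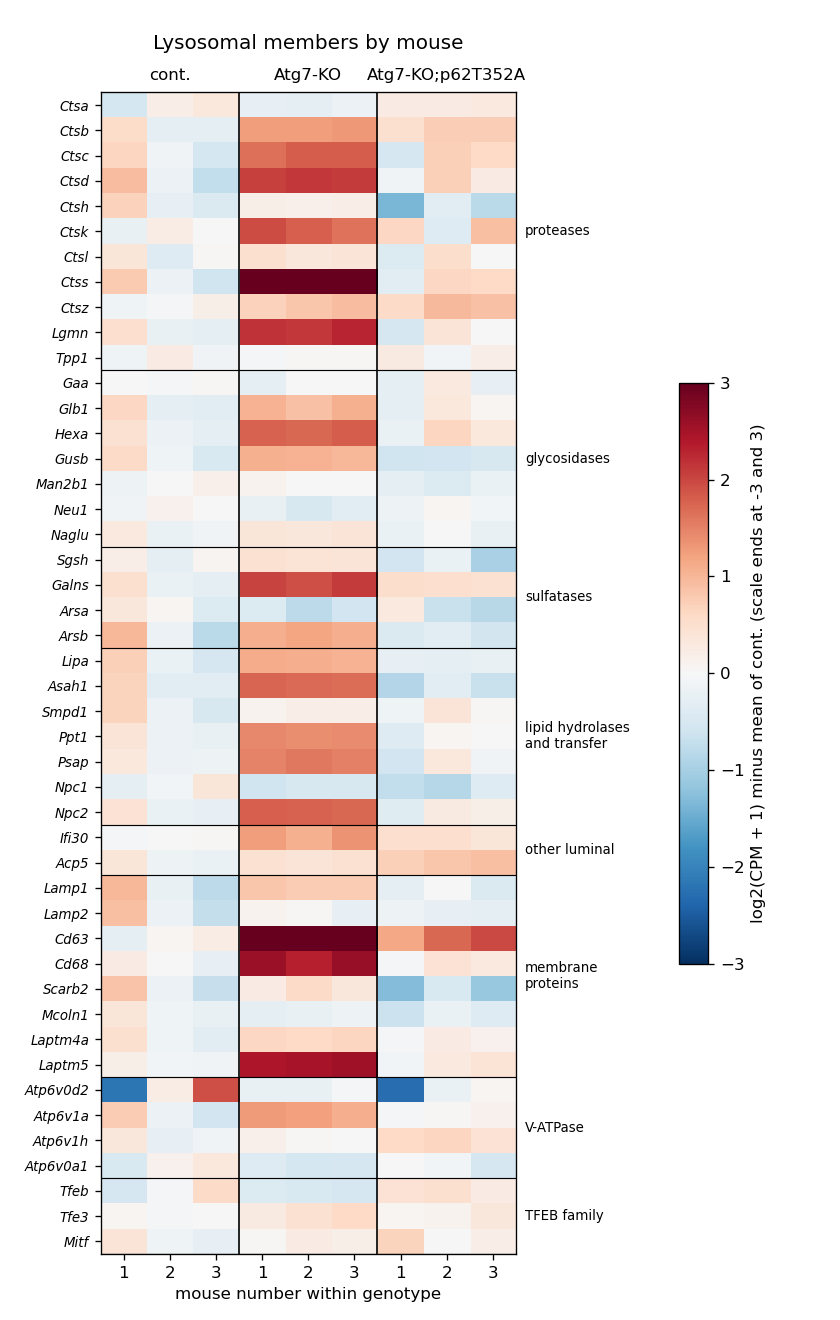
Levels of the 46 genes in each of the 9 livers. Rows are genes grouped by role, columns are mice grouped by genotype, and colour gives log2(CPM + 1) minus the mean of the 3 cont. mice, with the scale ending at -3 and 3. The Atg7-KO columns are red in 21 called rows from Ctsb to Atp6v1a, and cont. mouse 1 is above the other two in 33 rows.

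Proteases of the lumen held 11 of the genes, and 7 were called higher in Atg7-KO livers than in cont.. Cathepsin S (Ctss), a cysteine protease of antigen-presenting cells, was at 42.98, 21.4 and 15.7 CPM in the cont. mice, 261, 246 and 254 in the Atg7-KO mice and 19.6, 38.2 and 37.3 in the Atg7-KO;p62T352A mice. All 3 Atg7-KO mice were above all others, by a log2 fold change of 3.24 ± 0.40 (standard error) against cont. (FDR = 0.000245), and the value for Atg7-KO;p62T352A against Atg7-KO was -3.00 ± 0.39 (FDR = 0.000302). Cathepsin K (Ctsk), a collagen-degrading cysteine protease best known from osteoclasts, was far lower in level, with 0.516, 1.04 and 0.769 CPM in the cont. mice, 5.85, 5.14 and 4.48 in the Atg7-KO mice and 1.71, 0.350 and 2.29 in the Atg7-KO;p62T352A mice. Its log2 fold changes were 2.76 ± 0.55 and -1.82 ± 0.50, with FDRs of 0.0031 and 0.0121. Legumain (Lgmn), an asparaginyl endopeptidase that processes cathepsins, was at 61.4, 36.6 and 34.5 CPM in the cont. mice, 196, 188 and 210.3 in the Atg7-KO mice and 29.6, 56.2 and 43.2 in the Atg7-KO;p62T352A mice. It rose by 2.16 ± 0.29 in Atg7-KO against cont. livers on the log2 scale (FDR = 0.000401) and was at -2.20 ± 0.29 in Atg7-KO;p62T352A against Atg7-KO livers (FDR = 0.000316), and its cont. and Atg7-KO;p62T352A mice overlapped.

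Cathepsin D (Ctsd), the main aspartic protease of lysosomes and 1 of the 5 genes shown above, was at 338, 155 and 105 CPM in the cont. mice, 740.1, 777 and 759 in the Atg7-KO mice and 163, 291 and 209 in the Atg7-KO;p62T352A mice. Cont. mouse 1 was above all 3 Atg7-KO;p62T352A mice, and all 3 Atg7-KO mice were above both other genotypes (log2 fold changes 1.93 ± 0.40 and -1.78 ± 0.40, FDR = 0.00397 and 0.00468). Of the 75-base stretches of Ctsd transcripts, 31.3% also occur in the overlapping gene model Gm49369, so its counts depend on how reads were divided between both. Cathepsin C (Ctsc), which activates serine proteases of immune cells, followed the same order with means of 54.96 ± 23.7, 178 ± 10.4 and 66.9 ± 26.6 CPM (SD, n = 3) in cont., Atg7-KO and Atg7-KO;p62T352A livers. Cathepsin B (Ctsb), an abundant cysteine protease of liver, was at 782, 439.5 and 443 CPM in the cont. mice, 1278, 1280.0 and 1312 in the Atg7-KO mice and 739.5, 889 and 894 in the Atg7-KO;p62T352A mice. It was called higher in Atg7-KO livers than in cont. (log2 fold change 1.22 ± 0.25, FDR = 0.00385), whereas the difference between the 2 knockout genotypes did not pass (FDR = 0.0594) but was called with DESeq2, with upper-quartile scaling, with at least 10 counts in every mouse and without cont. mouse 1. Cathepsin Z (Ctsz), a carboxypeptidase, was at 168, 176 and 204 CPM in the cont. mice, 294, 326 and 348 in the Atg7-KO mice and 272, 355 and 338 in the Atg7-KO;p62T352A mice. Both knockout genotypes were above cont. in every mouse, each by a log2 fold change of 0.82 (FDR = 0.00523 and 0.0222), and they overlapped with each other (FDR = 0.99). The call of Ctsz in Atg7-KO;p62T352A against cont. livers was lost without cont. mouse 2 and without mouse 2 or 3 of either knockout genotype, where its log2 fold change was 0.73 to 0.82.

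Cathepsin H (Ctsh), an aminopeptidase, was called only between the knockout genotypes, with 214, 213 and 218 CPM in Atg7-KO and 72.7, 151 and 108 CPM in Atg7-KO;p62T352A mice and a log2 fold change of -0.96 ± 0.33 (FDR = 0.0335). Its cont. mice, at 307, 159.8 and 141 CPM, overlapped with both. The call was lost without any single Atg7-KO mouse and without mouse 1 or 3 of Atg7-KO;p62T352A, at -0.73 to -0.97, and with a replicate block for the mouse number, at -0.97. The remaining proteases, Ctsa (the protective protein of beta-galactosidase and neuraminidase), Ctsl (cathepsin L) and Tpp1 (tripeptidyl peptidase), were not called in any comparison, with FDRs of at least 0.0768. Ctsa carries copies of TCACGTGA in its promoter and was at 212 ± 60.6, 175 ± 6.09 and 247 ± 4.55 CPM in cont., Atg7-KO and Atg7-KO;p62T352A livers.

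Glycosidases, which remove sugars from glycolipids, glycoproteins and glycosaminoglycans, had 3 of 7 genes called, the same 3 in both comparisons with Atg7-KO livers. The alpha subunit of hexosaminidase (Hexa), which degrades gangliosides, was at 48.2, 31.2 and 28.7 CPM in the cont. mice, 123, 119 and 125 in the Atg7-KO mice and 30.2, 55.5 and 43.6 in the Atg7-KO;p62T352A mice. Its log2 fold change was 1.76 ± 0.27 in Atg7-KO against cont. (FDR = 0.000737) and -1.50 ± 0.26 in Atg7-KO;p62T352A against Atg7-KO livers (FDR = 0.0013). Beta-glucuronidase (Gusb) was at 30.6, 18.2 and 14.5 CPM in the cont. mice, 42.99, 42.6 and 41.3 in the Atg7-KO mice and 13, 13.2 and 14.1 in the Atg7-KO;p62T352A mice. All 3 Atg7-KO;p62T352A mice were below all 3 cont. mice, but this difference was not called (FDR = 0.119), while Atg7-KO livers were above both (log2 fold changes 0.99 ± 0.25 and -1.65 ± 0.25, the first 0.80 and not called without cont. mouse 2). Beta-galactosidase (Glb1) was at 16.7, 8.61 and 8.13 CPM in the cont. mice, 22.9, 20.5 and 23.1 in the Atg7-KO mice and 8.64, 13.4 and 11.2 in the Atg7-KO;p62T352A mice. Its log2 fold changes were 0.98 ± 0.28 (FDR = 0.0193) and -1.00 ± 0.28 (FDR = 0.0147). The first was lost as a call without mouse 2 or 3 of cont. or mouse 1 or 3 of Atg7-KO, at 0.72 to 0.95, and the second without Atg7-KO;p62T352A mouse 1, at -0.84. The remaining glycosidases were Gaa (acid alpha-glucosidase, which degrades glycogen), Man2b1 (alpha-mannosidase), Neu1 (neuraminidase) and Naglu (an enzyme of heparan sulfate degradation). None was called in any comparison. Naglu passed the FDR between the knockout genotypes (0.0302) with a fold change under 1.5, from 29.2 ± 0.548 CPM in Atg7-KO to 20.3 ± 1.86 CPM in Atg7-KO;p62T352A livers.

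Sulfatases and related enzymes of glycosaminoglycan and sulfatide breakdown had 1 of 4 genes called higher in Atg7-KO livers than in cont. and 3 of 4 called lower in Atg7-KO;p62T352A livers than in Atg7-KO. Galns, which removes sulfate from keratan sulfate, was at 7.16, 4.07 and 3.74 CPM in the cont. mice, 22.6, 21.1 and 23.98 in the Atg7-KO mice and 7.43, 7.21 and 6.98 in the Atg7-KO;p62T352A mice. The Atg7-KO mice stood apart from both other genotypes (log2 fold changes 2.15 ± 0.25 and -1.65 ± 0.24, FDR = 0.000176 and 0.000502). Arylsulfatase B (Arsb), which acts on dermatan sulfate, was at 37.1, 15.9 and 9.89 CPM in the cont. mice, 39.7, 42.5 and 39.98 in the Atg7-KO mice and 13.1, 14.3 and 12.01 in the Atg7-KO;p62T352A mice. Cont. mouse 1 was close to the Atg7-KO mice, and the difference between Atg7-KO and cont. livers was not called (FDR = 0.0688), whereas Atg7-KO;p62T352A livers were lower than Atg7-KO livers (-1.63 ± 0.39, FDR = 0.00665). Sulfamidase (Sgsh), an enzyme of heparan sulfate breakdown, was at 8.25, 5.58 and 7.58 CPM in the cont. mice, 10.01, 9.697 and 9.51 in the Atg7-KO mice and 4.43, 6.02 and 3.13 in the Atg7-KO;p62T352A mice. It was called lower in Atg7-KO;p62T352A livers than in Atg7-KO (-1.11 ± 0.26, FDR = 0.00572). Arylsulfatase A (Arsa), which degrades sulfatide, had means of 32.2 ± 8.402, 20.8 ± 2.77 and 25.3 ± 11.99 CPM in cont., Atg7-KO and Atg7-KO;p62T352A livers and was not called.

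Enzymes and carriers of lipid breakdown had 5 of 7 genes called higher in Atg7-KO livers than in cont. and the same 5 called lower in Atg7-KO;p62T352A livers than in Atg7-KO. Acid ceramidase (Asah1) was at 46.7, 22.6 and 22.6 CPM in the cont. mice, 99.9, 95.6 and 94.1 in the Atg7-KO mice and 15.1, 22.5 and 17.9 in the Atg7-KO;p62T352A mice. All 3 Atg7-KO mice were above cont. by a log2 fold change of 1.65 ± 0.29 (FDR = 0.0017), and Atg7-KO;p62T352A was -2.38 ± 0.30 against Atg7-KO (FDR = 0.000252), with each Atg7-KO;p62T352A mouse also below each cont. mouse, a difference that was not called (FDR = 0.131). Npc2, whose product carries cholesterol out of the lysosomal lumen, was at 72.5, 46.1 and 44.4 CPM in the cont. mice, 185, 182 and 177 in the Atg7-KO mice and 40.8, 64.2 and 59.7 in the Atg7-KO;p62T352A mice. Prosaposin (Psap), the precursor of the saposins, which help enzymes reach sphingolipids, was at 431, 309.6 and 313 CPM in the cont. mice, 970.5, 1039 and 998 in the Atg7-KO mice and 233, 435 and 320.5 in the Atg7-KO;p62T352A mice. Both genes had Atg7-KO mice above all others, with log2 fold changes of 1.74 ± 0.24 and -1.72 ± 0.24 for Npc2 and of 1.51 ± 0.25 and -1.61 ± 0.26 for Psap, all with FDRs of 0.00134 or less.

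The further called lipid genes were Lipa (lysosomal acid lipase, which frees cholesterol and fatty acids) and Ppt1 (palmitoyl-protein thioesterase). Lipa was at 364, 190.4 and 154 CPM in the cont. mice, 478, 468 and 452 in the Atg7-KO mice and 187, 180.4 and 188 in the Atg7-KO;p62T352A mice. Its rise in Atg7-KO livers (0.98 ± 0.29, FDR = 0.0199) was no longer called without mouse 2 or 3 of cont. or without any single Atg7-KO mouse, at 0.74 to 1.00, whereas its fall in Atg7-KO;p62T352A livers (-1.33 ± 0.29, FDR = 0.00408) stayed called without any single mouse. Ppt1 had means of 23.9 ± 6.16, 63.99 ± 1.09 and 21.9 ± 3.57 CPM in cont., Atg7-KO and Atg7-KO;p62T352A livers. Acid sphingomyelinase (Smpd1) and the cholesterol transporter of the lysosomal membrane Npc1 were not called. Npc1 was below cont. in every mouse of both knockout genotypes, with means of 138 ± 31.9, 94.3 ± 4.73 and 86.1 ± 14.8 CPM and FDRs of 0.0527 and 0.0624 against cont.

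The remaining enzymes of the lumen, Ifi30 and Acp5, had different patterns. Ifi30, a thiol reductase of antigen processing whose promoter is shown above, was at 19.7, 20.8 and 20.99 CPM in the cont. mice, 50.3, 43.8 and 53.4 in the Atg7-KO mice and 29.6, 29.3 and 26.8 in the Atg7-KO;p62T352A mice. Its mice did not overlap between any 2 genotypes, and it was called higher in Atg7-KO livers than in cont. (1.26 ± 0.15, FDR = 0.000209) and lower in Atg7-KO;p62T352A livers than in Atg7-KO (-0.78 ± 0.15, FDR = 0.0019). Tartrate-resistant acid phosphatase (Acp5), a macrophage and osteoclast enzyme, was at 131, 91.3 and 88.1 CPM in the cont. mice, 139, 134 and 140.4 in the Atg7-KO mice and 166, 182 and 192 in the Atg7-KO;p62T352A mice. The Atg7-KO;p62T352A mice were highest and were called against cont. (0.80 ± 0.19, FDR = 0.0269), without a call in either other comparison. That call was lost without any single mouse except cont. mouse 1, at 0.64 to 0.85, and with a replicate block for the mouse number, at 0.81.

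**Figure D2:**
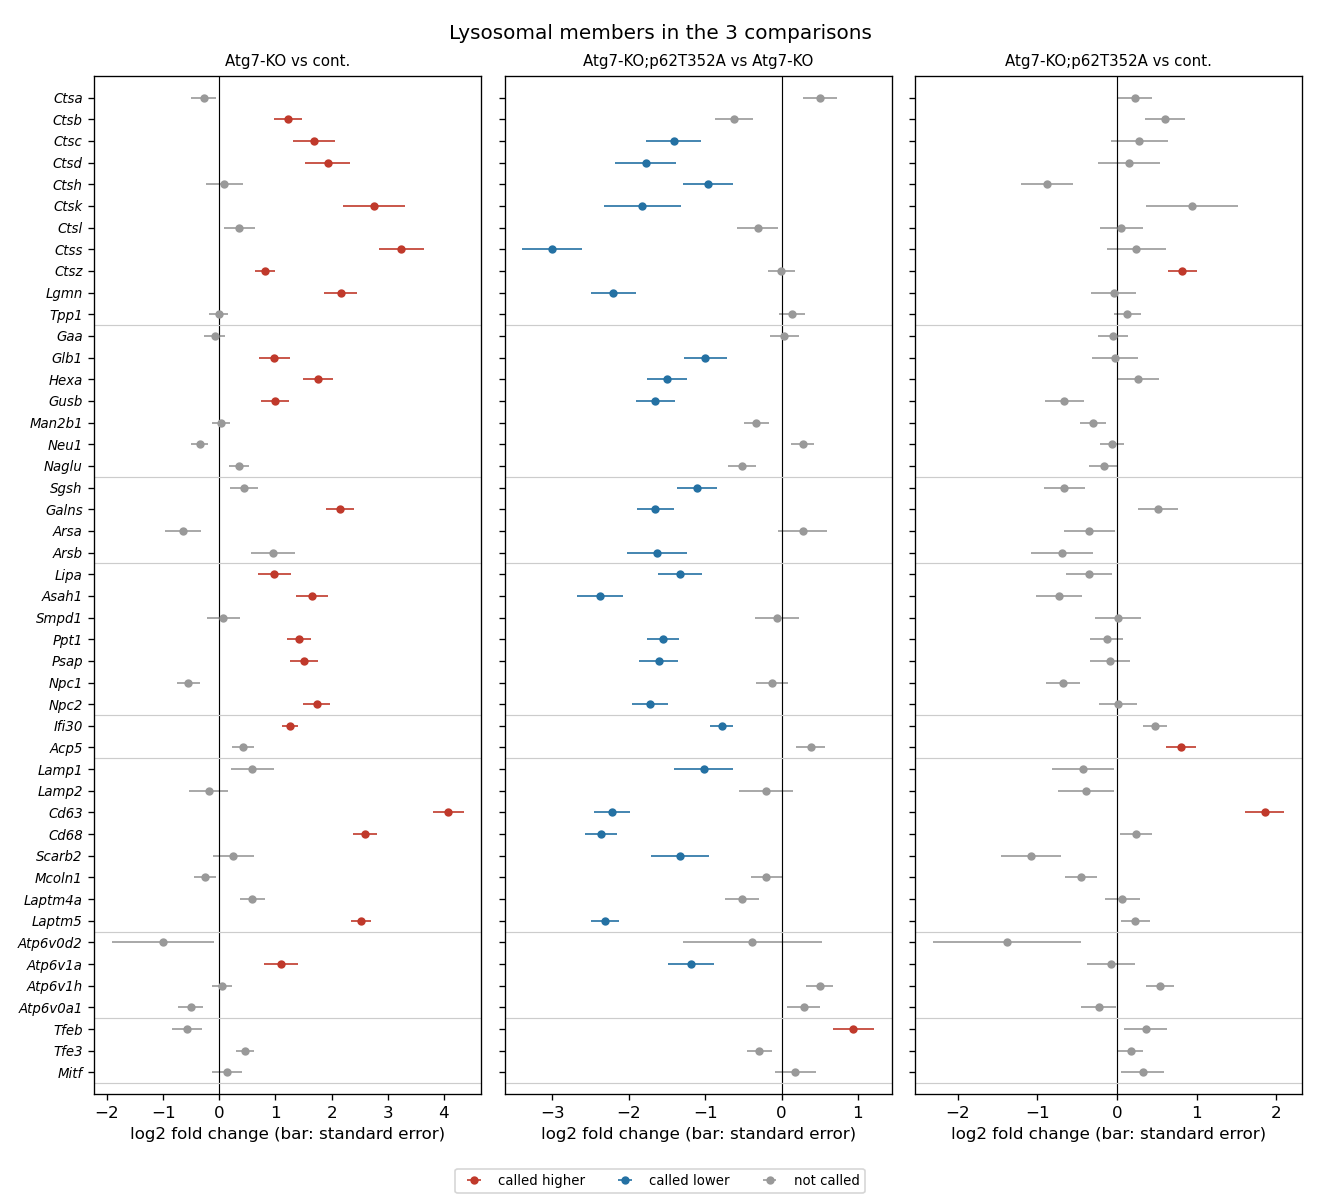
Log2 fold changes of the 46 genes in the 3 comparisons. Points are edgeR estimates and bars standard errors from 3 mice per genotype, with red for called higher, blue for called lower and grey for not called. In Atg7-KO against cont. 21 genes are red, in Atg7-KO;p62T352A against Atg7-KO 24 are blue and Tfeb is red, and in Atg7-KO;p62T352A against cont. Ctsz, Acp5 and Cd63 are red.

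Membrane proteins ranged from the gene with the largest rise of all 46 in Atg7-KO livers to genes that were not called. Cd63, a tetraspanin of late endosomes, lysosomes and exosomes, was at 3.67, 4.82 and 5.495 CPM in the cont. mice, 86.96, 75.3 and 71.9 in the Atg7-KO mice and 11.6, 17.6 and 21.02 in the Atg7-KO;p62T352A mice. Its genotypes did not overlap, with the order cont., Atg7-KO;p62T352A, Atg7-KO, and all 3 comparisons were called. The log2 fold change was 4.08 ± 0.27 in Atg7-KO against cont. (FDR = 1.4e-05), -2.22 ± 0.24 in Atg7-KO;p62T352A against Atg7-KO (FDR = 0.000136) and 1.85 ± 0.25 in Atg7-KO;p62T352A against cont. livers (FDR = 0.00606). A pseudogene, Cd63-ps, shares 6.47% of the 75-base stretches of its transcripts.

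Cd68, a glycoprotein of macrophage lysosomes, was at 13.2, 11.2 and 9.12 CPM in the cont. mice, 72.3, 59.5 and 73.2 in the Atg7-KO mice and 10.8, 15.3 and 13.9 in the Atg7-KO;p62T352A mice. Laptm5, a lysosomal membrane protein of blood-derived cells, was at 23.2, 19.2 and 18.9 CPM in the cont. mice, 114, 117 and 124 in the Atg7-KO mice and 19.3, 25.3 and 27.2 in the Atg7-KO;p62T352A mice. Both were high in Atg7-KO mice only, and both had overlapping cont. and Atg7-KO;p62T352A mice. Cd68 had log2 fold changes of 2.60 ± 0.21 and -2.36 ± 0.21, and Laptm5 of 2.53 ± 0.18 and -2.31 ± 0.18, with FDRs of 5.74e-05 or less.

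The LAMP proteins, which make up much of the lysosomal membrane, did not share this pattern. Lamp1 was at 835, 357 and 243 CPM in the cont. mice, 748, 704 and 711 in the Atg7-KO mice and 342, 416 and 307 in the Atg7-KO;p62T352A mice. The spread among the cont. mice was wide and mouse 1 lay above all Atg7-KO mice, so that Atg7-KO against cont. was not called (0.59 ± 0.39, FDR = 0.235). Without cont. mouse 1 this log2 fold change was 1.26 and was called. Lamp1 was lower in Atg7-KO;p62T352A livers than in Atg7-KO (-1.02 ± 0.39, FDR = 0.0481), a call close to the threshold that was lost without cont. mouse 2 and without any single mouse of either knockout genotype, at -0.92 to -1.15, and with DESeq2 size factors in edgeR. Lamp2, whose isoform LAMP2A is the receptor of chaperone-mediated autophagy, was at 1124, 532 and 369.5 CPM in the cont. mice, 646, 622 and 508 in the Atg7-KO mice and 540.2, 513 and 495 in the Atg7-KO;p62T352A mice. It overlapped between all genotypes with log2 fold changes of -0.19 ± 0.35, -0.20 ± 0.35 and -0.39 ± 0.35 in the 3 comparisons, and the signs against cont. turned to 0.39 and 0.20 without cont. mouse 1.

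Scarb2 (LIMP-2), which carries beta-glucocerebrosidase to the lysosome, was called lower in Atg7-KO;p62T352A livers than in Atg7-KO (-1.33 ± 0.38, FDR = 0.0149), from 65.5, 82.6 and 70.05 CPM to 21.9, 40.1 and 24.5 CPM. Its cont. mice, at 100.1, 48.9 and 33.9 CPM, overlapped with both, and the call was lost without mouse 1 or 3 of Atg7-KO;p62T352A, at -1.17 and -1.22. The calcium channel Mcoln1 and the transport protein Laptm4a were not called. Mcoln1 was at 24.4 ± 5.76, 20.6 ± 0.905 and 17.9 ± 2.905 CPM in cont., Atg7-KO and Atg7-KO;p62T352A livers, and its mice overlapped between cont. and Atg7-KO livers. Laptm4a was higher in every Atg7-KO mouse than in every cont. mouse, at 332 ± 5.88 against 220.5 ± 67.4 CPM (FDR = 0.0533).

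**Figure D3:**
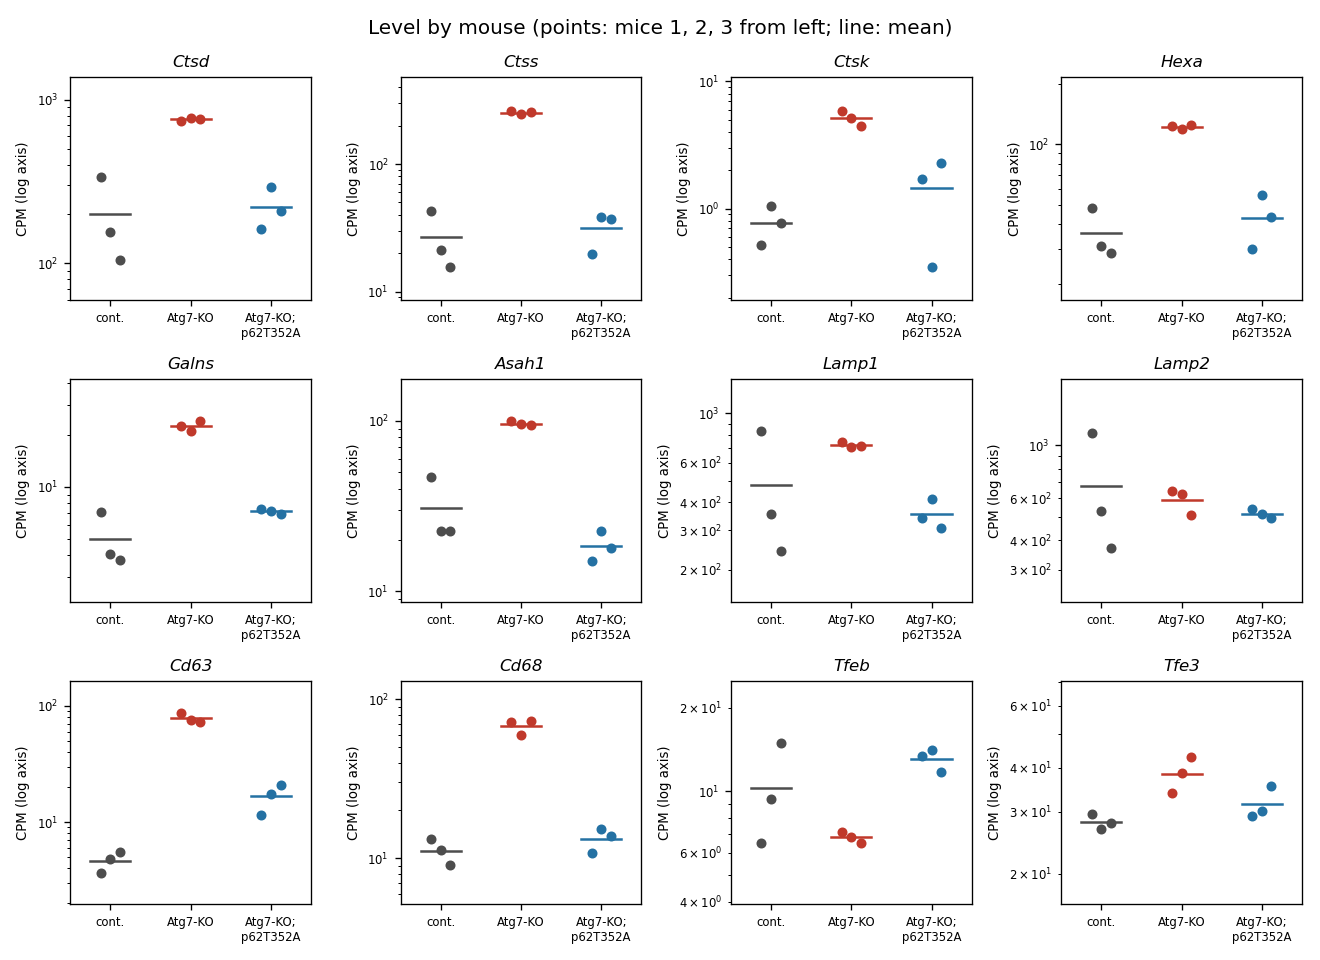
CPM by mouse of 12 of the genes on log axes. Points are mice 1, 2 and 3 from left to right and lines are means, in grey for cont., red for Atg7-KO and blue for Atg7-KO;p62T352A. Atg7-KO mice stand above all others for Ctsd, Ctss, Ctsk, Hexa, Galns, Asah1, Cd63 and Cd68, whereas Lamp1 and Lamp2 overlap between cont. and Atg7-KO mice and Tfeb is higher in Atg7-KO;p62T352A than in Atg7-KO mice.

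Of the 4 V-ATPase subunits among the genes, only Atp6v1a was called. The catalytic A subunit Atp6v1a was at 63.9, 32.6 and 24.6 CPM in the cont. mice, 91.7, 88.7 and 80.5 in the Atg7-KO mice and 36.2, 38.5 and 40.8 in the Atg7-KO;p62T352A mice. Its log2 fold changes were 1.10 ± 0.30 (FDR = 0.0147) and -1.18 ± 0.30 (FDR = 0.00932), and the first was lost as a call without cont. mouse 2, at 0.87. The regulatory subunit Atp6v1h passed the FDR between the knockout genotypes (0.0418) with a fold change under 1.5, at 50.7 ± 3.25 CPM in Atg7-KO and 71.8 ± 5.51 CPM in Atg7-KO;p62T352A livers. Atp6v0a1, a subunit of the membrane sector, was not called, with means between 51.5 and 73.6 CPM. Atp6v0d2, a subunit of the membrane sector in osteoclasts and macrophages, was at 1.95, 14.4 and 49.6 CPM in the cont. mice, 10.3, 10.3 and 11.9 in the Atg7-KO mice and 1.71, 10.5 and 12.7 in the Atg7-KO;p62T352A mice. The cont. mice alone covered the whole range of the other genotypes but the lowest mouse, and no comparison was called.

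Of the 3 transcription factors of the TFEB family, Tfeb was called in 1 comparison and Tfe3 and Mitf in none. Tfeb was at 6.53, 9.36 and 14.9 CPM in the cont. mice, 7.11, 6.86 and 6.53 in the Atg7-KO mice and 13.4, 14.1 and 11.8 in the Atg7-KO;p62T352A mice. The Atg7-KO mice were tightly grouped and each was below each Atg7-KO;p62T352A mouse, which gave the only call upward among the 46 genes between the knockout genotypes (0.94 ± 0.27, FDR = 0.0159), lost without Atg7-KO mouse 2 or 3, at 0.94 and 0.90. Between Atg7-KO and cont. livers the log2 fold change was -0.58 ± 0.27 (FDR = 0.109), with overlap only at cont. mouse 1, and it was -0.83 and called without that mouse. Tfe3 was at 29.4, 26.8 and 27.9 CPM in the cont. mice, 33.9, 38.6 and 43.05 in the Atg7-KO mice and 29.1, 30.1 and 35.4 in the Atg7-KO;p62T352A mice. It was above cont. in all 3 Atg7-KO mice with an FDR of 0.0403, but its log2 fold change of 0.46 ± 0.16 was below the fold threshold. Mitf was at 7.05, 4.63 and 4.18 CPM in the cont. mice, 5.32, 6.33 and 6.02 in the Atg7-KO mice and 8.78, 5.18 and 6.07 in the Atg7-KO;p62T352A mice. All genotypes overlapped for Mitf, with log2 fold changes of 0.14 ± 0.27, 0.18 ± 0.27 and 0.32 ± 0.27 in the 3 comparisons. RNA levels do not show where these proteins were in the cell.

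Per length of the longest annotated transcript, the levels of the 46 genes in cont. livers spanned from 0.513 CPM per kb for Ctsk to 215 CPM per kb for Lamp1. In cont. livers Lamp1 was followed by Lamp2 (187 ± 110.2 CPM per kb, SD, n = 3), Psap (132 ± 26.1), Ctsz (127 ± 13.4), Laptm4a (124 ± 38.0) and Ctsb (117 ± 41.5), and these neighbours did not differ beyond their spread. In Atg7-KO livers the order began with Psap (377 ± 13.0 CPM per kb), Ctsd (357 ± 8.67) and Lamp1 (323 ± 10.5), of which the mice of Psap and Ctsd overlapped. Ctss moved from the 19th place in cont. to the 7th place in Atg7-KO livers, and Cd63 from the 44th to the 23rd. In Atg7-KO;p62T352A livers Ctsz (223 ± 30.3 CPM per kb) stood first and Ctsb (177 ± 18.5) followed. Tfeb, Tfe3 and Mitf were the 40th, the 39th and the 45th in cont. livers, at 4.39 ± 1.83, 4.43 ± 0.213 and 1.08 ± 0.316 CPM per kb.

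**Figure D4:**
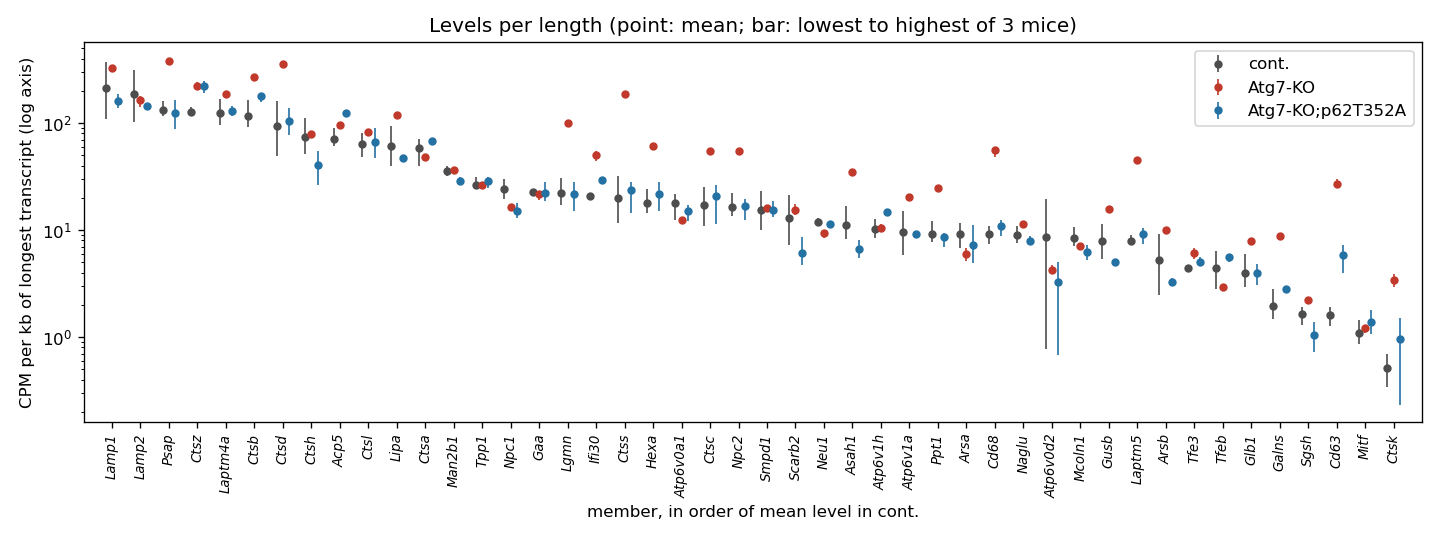
Levels of the 46 genes in CPM per kb of the longest transcript on a log axis, in the order of the mean in cont. livers. Points are means and bars run from the lowest to the highest of 3 mice, in grey for cont., red for Atg7-KO and blue for Atg7-KO;p62T352A. Cont. levels run from 215 for Lamp1 to 0.513 for Ctsk, and the widest bar among cont. mice is that of Atp6v0d2.

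The summed markers of several other liver cell types, but not those of endothelial cells, were also highest in Atg7-KO livers. The summed level of the 46 genes was 4106 to 6882 CPM in cont., 8917 to 8979 in the Atg7-KO mice and 4540 to 5760 in the Atg7-KO;p62T352A mice, and without any scaling between libraries they took 0.386 to 0.516%, 1.15 to 1.18% and 0.388 to 0.488% of all counts. Of 10 markers of Kupffer cells, the resident macrophages of liver, 7 (Vsig4, Cd5l, C1qa, C1qb, C1qc, Adgre1 and Csf1r) were called higher in Atg7-KO livers than in cont.. Timd4 was called lower, and Clec4f and Marco were not called. The summed level of the 10 markers was 376 to 515 CPM in cont., 1351 to 1466 in the Atg7-KO mice and 275 to 589 in the Atg7-KO;p62T352A mice. Resident and recruited macrophages were not separated here, so this sum is no measure of resident cells alone. In Atg7-KO;p62T352A against Atg7-KO livers 7 of the 10 markers were called lower, and Timd4 and Marco were called higher. Clec4f, a lectin of Kupffer cells, was at 107, 151 and 134 CPM in the cont. mice, 192, 172 and 182 in the Atg7-KO mice and 87.5, 167 and 124 in the Atg7-KO;p62T352A mice and was not called. All 10 markers of recruited macrophages were called higher in Atg7-KO livers than in cont. and lower in Atg7-KO;p62T352A livers than in Atg7-KO, and 5 stayed called higher in Atg7-KO;p62T352A livers than in cont.. Their summed level was 82.3 to 154 CPM in cont., 1533 to 1681 in the Atg7-KO mice and 188 to 319 in the Atg7-KO;p62T352A mice.

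Of 8 hepatocyte markers, 7 were called lower in Atg7-KO livers than in cont., with summed levels of 79460 to 125900 CPM in cont., 35430 to 37610 in the Atg7-KO mice and 110400 to 126900 in the Atg7-KO;p62T352A mice, so the tissue matched its label in every library. Summed cholangiocyte markers were 33.4 to 51.2, 823 to 1018 and 180.3 to 265 CPM, stellate cell markers 208 to 262, 524 to 562 and 307 to 489.9 CPM, lymphocyte markers 13.4 to 31.4, 58.1 to 64.9 and 21.4 to 25.3 CPM, and endothelial markers 220.1 to 294, 215 to 225 and 124 to 153 CPM. Spp1 counts in the lists of recruited macrophages and of cholangiocytes. It made up most of the cholangiocyte sum, at 967, 874 and 771 CPM in the Atg7-KO mice, and a large part of the recruited macrophage sum there. Krt19, Epcam and Sox9 were also called higher in Atg7-KO livers than in cont., and Krt7 was not. Sox9 and Krt7 were not called between the knockout genotypes. The endothelial sum held genes that went in opposite directions. Of its 5 markers, Lyve1 and Pecam1 were called higher and Stab2 lower in Atg7-KO livers than in cont., and Clec4g and Kdr were not called. Lyve1, Pecam1 and Kdr were called lower in Atg7-KO;p62T352A livers than in Atg7-KO. The part of macrophages and other cells in the rise and fall of the lysosome genes was not tested.

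**Figure D5:**
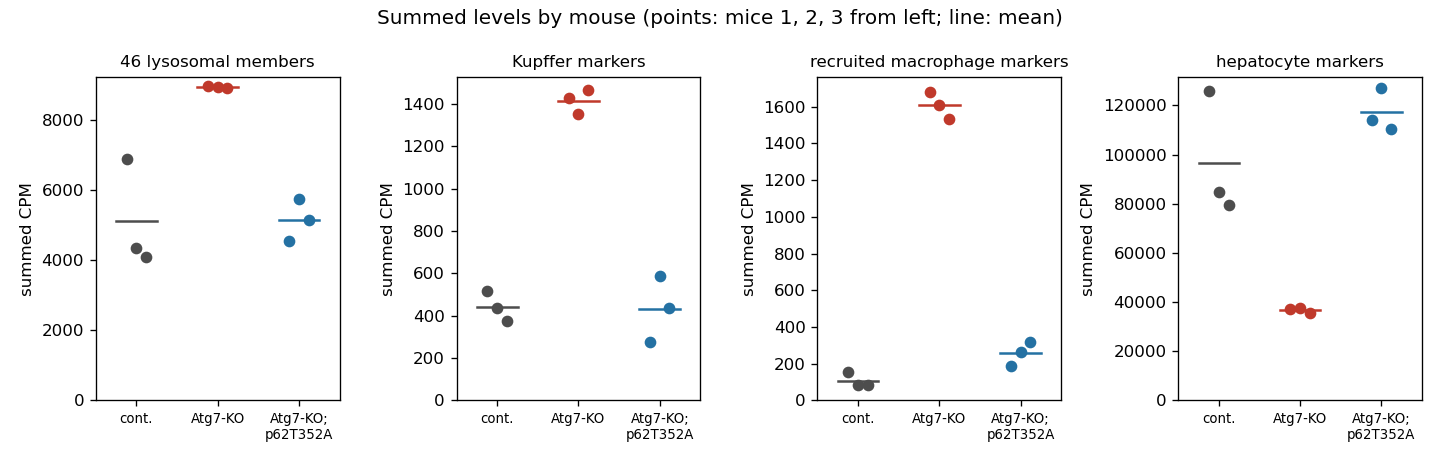
Summed CPM by mouse of the 46 lysosome genes, of 10 Kupffer cell markers, of 10 recruited macrophage markers and of 8 hepatocyte markers, on linear axes from 0. Points are mice 1, 2 and 3 from left to right and lines are means. The 3 Atg7-KO mice lie above all others in the first 3 panels and below all others in the last.

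Further genes of the pathway had calls in both directions. The background calls over all tested genes were 21.6% upward and 22.1% downward in Atg7-KO against cont. livers, 24.7% upward and 26.2% downward in Atg7-KO;p62T352A against Atg7-KO livers, and 6.25% upward and 5.34% downward in Atg7-KO;p62T352A against cont. livers. In lists of this size many of the counts that follow lie near these shares, so they describe the genes and are no result about a list. Of 22 further lysosomal hydrolases, 6 were called higher, with 1 lower, in Atg7-KO livers than in cont., and 8 lower and 2 higher in Atg7-KO;p62T352A livers than in Atg7-KO, with medians of 0.29 and -0.27 on the log2 scale. Compared with cont. livers, 1 was called higher and 3 lower in Atg7-KO;p62T352A livers. Alpha-galactosidase (Gla) was at 7.22, 2.74 and 5.38 CPM in the cont. mice, 17.02, 16.9 and 16.9 in the Atg7-KO mice and 3.86, 5.67 and 5.22 in the Atg7-KO;p62T352A mice, with all Atg7-KO mice above both other genotypes (1.71 ± 0.31 and -1.78 ± 0.31). The hyaluronidase Hyal1 was the one hydrolase called lower, at 30.9, 32.6 and 35.6 CPM in the cont. mice, 6.82, 10.2 and 8.02 in the Atg7-KO mice and 24.2, 14.2 and 15.1 in the Atg7-KO;p62T352A mice (-1.99 ± 0.24, FDR = 0.000249), and 49% of its 75-base transcript stretches are shared with the overlapping genes Naa80 and Hyal3.

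Of 13 further lysosomal membrane proteins, 2 were called higher, with 4 lower, in Atg7-KO livers than in cont., 4 higher and 3 lower in Atg7-KO;p62T352A livers than in Atg7-KO, and 1 higher and 0 lower in Atg7-KO;p62T352A livers than in cont., with medians of -0.14, 0.13 and -0.01. Gpnmb, a glycoprotein of macrophages and melanosomes that belongs to the known targets of MITF, was at 0.115, 0 and 0.220 CPM in the cont. mice, 18.4, 17.4 and 19.8 in the Atg7-KO mice and 0.928, 1.47 and 3.002 in the Atg7-KO;p62T352A mice. The cont. mice were at or near 0, and every Atg7-KO mouse was above every Atg7-KO;p62T352A mouse (-3.35 ± 0.41, FDR = 0.000236). Laptm4b was at 31.7, 13.99 and 13.6 CPM in the cont. mice, 48.5, 55.8 and 55.6 in the Atg7-KO mice and 13.1, 18.8 and 14.03 in the Atg7-KO;p62T352A mice (1.42 ± 0.32 and -1.80 ± 0.32). Among those lower in Atg7-KO livers, the arginine sensor Slc38a9 was at 12.7, 28.8 and 27.8 CPM in the cont. mice, 12.3, 11.9 and 11.3 in the Atg7-KO mice and 25.8, 16.5 and 26.6 in the Atg7-KO;p62T352A mice (-0.96 ± 0.31 and 0.96 ± 0.31). The ion channel Tmem175 was at 13.9, 26 and 21.8 CPM in the cont. mice, 12.5, 10.2 and 12.2 in the Atg7-KO mice and 25.2, 24.9 and 25.3 in the Atg7-KO;p62T352A mice (-0.82 ± 0.23 and 1.11 ± 0.23).

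Of 14 further V-ATPase subunits, 4 were called higher, with 0 lower, in Atg7-KO livers than in cont., 6 lower and 2 higher in Atg7-KO;p62T352A livers than in Atg7-KO, and 2 higher and 1 lower in Atg7-KO;p62T352A livers than in cont., with medians of 0.57, -0.39 and 0.03. The largest rise that was called was that of Atp6v0e, at 59.4, 29.1 and 19.9 CPM in the cont. mice, 106, 80.1 and 86.3 in the Atg7-KO mice and 25.6, 45.04 and 30.4 in the Atg7-KO;p62T352A mice (1.33 ± 0.38, FDR = 0.0169), followed by the accessory subunit Atp6ap2 (0.97 ± 0.28, FDR = 0.0196), at 47.2, 26.3 and 19.6 CPM in the cont. mice, 62.7, 62.9 and 57.3 in the Atg7-KO mice and 27.1, 32.6 and 33.2 in the Atg7-KO;p62T352A mice. Leaving out cont. mouse 2 removed all 4 calls against cont. and leaving out cont. mouse 1 raised the number to 9. Atp6v0c, the proteolipid that forms the rotor, named here after its values were seen, was at 181, 56.7 and 79.5 CPM in the cont. mice, 238, 231 and 218 in the Atg7-KO mice and 16.1, 35.8 and 21.02 in the Atg7-KO;p62T352A mice. It was the subunit called lower in Atg7-KO;p62T352A livers than in cont. (-2.12 ± 0.43, FDR = 0.0171), and 9.24% of its 75-base stretches are shared with pseudogenes such as Atp6v0c-ps2.

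Of 23 genes that control TFEB at the lysosome or sort enzymes to it, 22 were tested (all but Rragb). In Atg7-KO against cont. livers 6 genes passed as higher and 2 as lower, in Atg7-KO;p62T352A against Atg7-KO livers 3 higher and 9 lower, and in Atg7-KO;p62T352A against cont. livers 1 higher and 2 lower, with medians of 0.24, -0.44 and -0.19. Rragd, a Rag GTPase that recruits TFEB to the lysosome and is itself a known target of the TFEB family, was at 2.52, 2.55 and 2.198 CPM in the cont. mice, 81.1, 62.7 and 63.5 in the Atg7-KO mice and 1.93, 1.89 and 4.504 in the Atg7-KO;p62T352A mice. The Atg7-KO mice were far above both other genotypes, which overlapped with each other, with log2 fold changes of 4.82 ± 0.35 (FDR = 2.03e-05) and -4.63 ± 0.34 (FDR = 2.59e-05). Tfec, the remaining relative of TFEB and a factor of macrophages, was at 2.18, 3.31 and 1.21 CPM in the cont. mice, 5.803, 5.34 and 5.21 in the Atg7-KO mice and 3.07, 2.52 and 3.59 in the Atg7-KO;p62T352A mice (1.28 ± 0.32 and -0.83 ± 0.31). Folliculin (Flcn), the GTPase-activating partner of RagC and RagD, was at 27.5, 163 and 203 CPM in the cont. mice, 22.7, 22.4 and 29.3 in the Atg7-KO mice and 61.2, 41.3 and 94.6 in the Atg7-KO;p62T352A mice. It was called lower in Atg7-KO livers than in cont. (-2.40 ± 0.61, FDR = 0.0101), although cont. mouse 1 lay within the range of the Atg7-KO mice. Its partner Fnip1 was at 48.6, 65.5 and 72.2 CPM in the cont. mice, 33.2, 31.3 and 29.9 in the Atg7-KO mice and 48.6, 31.7 and 73.5 in the Atg7-KO;p62T352A mice (-0.98 ± 0.28, FDR = 0.0187), without overlap between Atg7-KO and cont. mice.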

How the data were processed

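The authors sequenced poly(A) RNA with single-end reads of 75 bases, trimmed them with Trim Galore per the labels, mapped them to mm10 (GRCm38) with STAR and quantified genes with RSEM. The deposited values are expected counts, unscaled, with 1 column per mouse. Tool versions, the annotation and strandedness are not given in the sources used here, so reads of overlapping antisense genes may not be separated. Labels name a column kit for RNA, and the methods name TRIzol. Counts were rounded, filtered with filterByExpr, scaled by TMM and fitted for all 3 genotypes in 1 quasi-likelihood model in edgeR 4.0.16 (R 4.3.3), with Benjamini-Hochberg FDR over 13922 genes. This fit replaced DESeq2, which the authors used and which was run as an alternative (1.42.0). Standard errors were derived from the F statistic. The steps were also run on simulated counts, with the same spread in every genotype and far fewer changed genes than were called here. That run checks the code and does not test the calls made here.

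Genes given mouse by mouse were those called with the 3 largest rises or falls of their role group, plus Lamp1, Lamp2, Tfeb, Tfe3 and Mitf, and of further lists the 2 largest called rises and falls in Atg7-KO. A gene named by this rule is not reported here. Others given by mouse were chosen after their values were seen. The genes and all lists were chosen with earlier results of these data known. Levels per kb used GENCODE vM21 transcripts. Alternatives were 2 other scalings, DESeq2, 2 filters, a replicate block, mice numbered 2 and 3 alone, FDR alone and each mouse left out. Counting depth limits low genes such as Ctsk. The p-values rest on a spread between mice that the model shares over all 3 genotypes. The genotypes were not alike in a different measure, a chi-square on unscaled counts. It grows with depth and with the most abundant genes and does not measure the spread of the model. Compared in pairs, the Atg7-KO mice differed by a chi-square per degree of freedom of 21.6 or less. Every pair of mice within either other genotype differed by 52 or more. How this affects the calls was not tested.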

Additional observations from a re-analysis of the deposited data

How the results depend on the processing

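Of the 46 genes, 21 stayed called in Atg7-KO against cont. under DESeq2, both other scalings, no filter and FDR alone, and with at least 10 counts in every mouse Ctsk was not tested. The median of the 46 in Atg7-KO against cont. was 0.55 with DESeq2 and with its size factors, 0.70 with upper-quartile scaling, which moved the median of all tested genes to 0.082, 0.68 with at least 10 counts and 0.67 with the replicate block. In Atg7-KO;p62T352A against cont. 2 of the 46 were lower with DESeq2 and 1 with its size factors, the further membrane list had 2 calls with DESeq2 and 0 with at least 10 counts, and the TFEB control list had 5 with DESeq2. FDR alone gave 2 genes higher in Atg7-KO;p62T352A than in Atg7-KO. With a replicate block for the mouse number 22, 24 and 2 of the 46 were called in the 3 comparisons, with Arsb gained and Ctsh and Acp5 lost, and further hydrolases had 2 calls in Atg7-KO;p62T352A against cont. The numbers do not pair the mice by the labels: deviations of same-numbered mice correlated at 0.137 to 0.271 for number 1, -0.202 to 0.0926 for number 2 and 0.181 to 0.321 for number 3, and 6 of 9 mice correlated best with their own number. With mice numbered 2 and 3 alone, 26 were higher and 4 lower in Atg7-KO against cont. (median 0.87), 10 higher and 1 lower in Atg7-KO;p62T352A against cont. (median 0.28), further hydrolases had 11 and 7 calls, V-ATPase subunits 8 and 5, membrane proteins 3 and the TFEB control list 6 in the last comparison. There Lamp2 turned to 0.33 and 0.16 and Lamp1 to 0.27 against cont., and Mitf to -0.13 between the knockout genotypes. In that setting 3816 of all 14060 tested genes were higher and 3833 lower in Atg7-KO against cont., and 1314 and 1661 in Atg7-KO;p62T352A against cont. With 1 mouse left out, Atg7-KO against cont. gave 17 to 26 genes higher, 0 to 3 lower and medians of 0.38 to 0.84, and 4 to 10, 0 to 9 and 5 to 12 calls among further hydrolases, V-ATPase subunits and the TFEB control list. Atg7-KO;p62T352A against Atg7-KO gave 0 to 1 higher, 20 to 25 lower, and 4 to 8 calls among V-ATPase subunits. Atg7-KO;p62T352A against cont. gave 1 to 6 higher, 0 to 2 lower, medians of -0.18 to 0.23, and 1 to 5, 1 to 3, 1 to 4 and 1 to 5 calls in the lists of hydrolases, membrane proteins, V-ATPase and TFEB control. Leaving out 1 mouse turned signs for Lamp2 in Atg7-KO against cont. (-0.49 to 0.39) and in Atg7-KO;p62T352A against cont. (-0.69 to 0.20), for Lamp1 in Atg7-KO;p62T352A against cont. (-0.75 to 0.24), all without cont. mouse 1, and for Mitf in Atg7-KO against cont. (-0.039 to 0.42, turned without cont. mouse 2 or, at -0.006, 3) and between the knockout genotypes (-0.061 without Atg7-KO;p62T352A mouse 1, to 0.34). The mouse numbers also follow Xist, with 28 or fewer counts in each mouse numbered 1 and 8578 or more in the others. The setting with mice numbered 2 and 3 alone thus kept only mice with high Xist. The replicate block for the mouse number likewise takes in this difference. The causes of the changes between settings were not tested, beyond the fewer mice.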

Other observations

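Values by mouse of 3 genes that are counted above among those that control TFEB or sort enzymes were chosen after they were seen. The mannose 6-phosphate receptors, which carry new hydrolases from the Golgi to endosomes, were both highest in Atg7-KO livers. M6pr was at 142, 75.1 and 58.6 CPM in the cont. mice, 194, 198 and 200.3 in the Atg7-KO mice and 112, 98.98 and 114 in the Atg7-KO;p62T352A mice. Igf2r was at 37.7, 31.96 and 34.2 CPM in the cont. mice, 57.4, 70.8 and 62.1 in the Atg7-KO mice and 34.99, 29 and 25.9 in the Atg7-KO;p62T352A mice. Both were called higher in Atg7-KO livers than in cont. (1.10 ± 0.29 and 0.87 ± 0.17) and lower in Atg7-KO;p62T352A livers than in Atg7-KO (-0.86 ± 0.29 and -1.08 ± 0.17). Lamtor4, a subunit of the Ragulator scaffold that holds mTORC1 at the lysosome, was at 50.5, 50.1 and 52.1 CPM in the cont. mice, 34.6, 34.4 and 40.1 in the Atg7-KO mice and 94.2, 116 and 88.6 in the Atg7-KO;p62T352A mice. The Atg7-KO;p62T352A mice were above all others, and Lamtor4 was called higher there than in both other genotypes (FDR = 0.000151 against Atg7-KO and 0.00958 against cont.).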
